A study of Mus musculus with 8 samples.

Results

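The cytosolic ribosome is built from ribosomal RNA and about one copy each of many small basic proteins, the Rpl proteins of the large subunit and the Rps proteins of the small subunit. Their mRNAs are among the most abundant in a cell, and most begin with a terminal oligopyrimidine (TOP) tract, a run of C and T at the first bases of the transcript through which the kinase complex TORC1 sets their translation when nutrients change. In muscle fibres, ribosome number is one of the limits on how much contractile protein is made. The genes described here are the cytosolic ribosomal protein genes, chosen by gene symbol: Rpl or Rps followed by a digit, Rplp0 to Rplp2 or Rpsa, without the Rps6k kinases and pseudogenes, on probe sets annotated with 1 symbol. They comprised 100 of 22626 probe sets and 48 of 12393 genes, 26 of the large and 22 of the small subunit.

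The samples were myotubes of C2C12, an established mouse myoblast line, that had differentiated for 4 days in 2% horse serum. The starved group (4 arrays, E to H) then went without new medium for 4 days, while the control group (4 arrays, A to D) had its medium renewed every 48 h. RNA of both groups was taken on day 8. Every culture came from the 1 cell line, so the replicates share a genetic source, and nothing in the labels tells whether they were separate cultures; the p-values given here then cover only spread among the samples at hand, part of which may be technical.

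Array signal was deposited as intensity, and the trimmed mean per array was 243 to 366 units in starved and 317 to 455 units in control arrays (log2 difference -0.38; p = 0.0857 in an exact two-sided permutation of 4 and 4 arrays). Levels below are log2 signals after quantile normalization, which gives all arrays the same distribution, so a fold change is a change relative to the other genes of the array. All 10 myotube marker genes looked for were bright enough to be tested, among them Acta1 with a mean of 13.51 in both groups and Myod1 with 11.61 in starved and 11.25 in control arrays. Of these 10 markers 1 was called, Des (-0.22, lower in starved). Estimates lay above 0 for 3 of the 10 and below 0 for 7, with a median of -0.10, against 52.3% above 0 over all genes. Every starved array was below every control array for 3 markers (against 10.2% of all genes) and above for 2 (against 8.23%). Of 6 adipocyte markers only Fabp4 was tested (0.13, not called), the others being too dim or without a probe set of 1 symbol. Of 6 tested myoblast and cycling genes 2 were lower in starved arrays (Rrm2, log2 difference -0.83, and Cdk1, -0.82), and of 8 fibroblast genes 2 were lower (Pdgfrb, -1.83, and Col1a1, -1.15) and 1 higher (Dcn, 0.94). In such bulk RNA fewer cells of a type and less RNA per cell cannot be told apart, and the part of these shifts in the ribosomal protein values was not tested. Control B stood apart in its Gapdh control probe sets, whose log2 ratio of 3′ to 5′ signal was 1.40, against -0.23 to -0.04 in starved arrays and -0.22 to -0.12 in the other 3 controls. Control B also had the highest level of its group for 23 of the 45 ribosomal protein genes tested, and the part of RNA quality in their values was not tested beyond leaving that array out.

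The starts of 10 of these genes are shown because a TOP tract is known from most ribosomal protein mRNAs. They are RefSeq sequences of mouse build GRCm38.p6, from 35 bases before the annotated start to 25 bases from it on, read on the strand of the gene. Capitals mark the longest run of at least 6 pyrimidines (C or T) that reaches within 15 bases of the start. The first 5 genes rose in starved myotubes and are the called genes with a single listed start, which leaves out Rps19 and Rpl22. The other 5 did not pass the test and were picked by hand as examples that have a run, so the display does not compare the groups.
Rpl27a, chr7:109519160-109519219, plus strand: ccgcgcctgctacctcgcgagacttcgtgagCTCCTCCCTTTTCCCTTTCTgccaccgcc
Rpl4, chr9:64173352-64173411, plus strand: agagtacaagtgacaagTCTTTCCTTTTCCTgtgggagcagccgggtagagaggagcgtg
Rps18, chr17:33955641-33955700, minus strand: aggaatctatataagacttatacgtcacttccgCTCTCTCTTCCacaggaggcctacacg
Rps3, chr7:99483685-99483744, minus strand: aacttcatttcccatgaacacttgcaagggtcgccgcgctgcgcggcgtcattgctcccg
Rps7, chr12:28635929-28635988, minus strand: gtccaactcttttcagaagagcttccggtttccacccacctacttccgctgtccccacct
Rpl7a, chr2:26910772-26910831, plus strand: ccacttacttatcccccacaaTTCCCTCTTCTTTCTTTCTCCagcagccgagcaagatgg
Rpl35, chr2:39005107-39005166, minus strand: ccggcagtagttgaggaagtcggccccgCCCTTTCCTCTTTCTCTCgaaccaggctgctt
Rplp2, chr7:141447616-141447675, plus strand: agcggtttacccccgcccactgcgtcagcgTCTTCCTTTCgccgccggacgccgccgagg
Rps6, chr4:86857343-86857402, minus strand: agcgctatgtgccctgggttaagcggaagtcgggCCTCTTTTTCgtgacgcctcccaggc
Rps10, chr17:27635220-27635279, minus strand: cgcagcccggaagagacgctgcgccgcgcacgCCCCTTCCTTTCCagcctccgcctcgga

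The longest runs were 21 bases in Rpl7a and 20 bases in Rpl27a, and Rps3 and Rps7 had no run of at least 6 pyrimidines in the stretch searched. Of the 45 tested genes 40 matched an entry of the RefSeq promoter table, and of these 28 (70%) had a run of at least 6 pyrimidines between 15 bases before and 25 bases after a listed start, against 40.1% of all 27025 genes of the table. On the other strand the same windows held such a run in 17.5% of the ribosomal protein genes and 44.3% of all genes. Of the 7 genes that rose in starved myotubes, all of which matched, 4 had a run on the strand of the gene, as did 24 of the 33 matched genes that were not called. On the other strand 4 of these 7 and 3 of these 33 had one. The letters CCGGAAG, the core that factors of the ETS family bind, occurred on either strand of the 300-base promoter in 20 of the 40 genes (50%), against 9.93% of all genes. AAGATGGC, part of the site of the factor YY1, occurred in 4 of 40 (10%, against 3.19%), and TATAAA in 6 of 40 (15%, against 15.7%). A match is a description of the letters in these windows, and annotated starts can lie some bases from the start used in muscle cells.

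Ribosomal protein probe sets took a larger share of the array signal in starved myotubes. The 100 probe sets took up 5.00%, 4.64%, 4.92% and 4.43% of the summed deposited signal in starved arrays E to H, against 3.66%, 4.35%, 4.01% and 3.87% in control arrays A to D. Each starved array was thus above each control array, with means of 4.75% ± 0.26 in starved and 3.97% ± 0.29 in control arrays (SD, n = 4 each). The large subunit took 2.12% ± 0.11 in starved and 1.79% ± 0.12 in control arrays, and the small subunit 2.63% ± 0.15 in starved and 2.18% ± 0.17 in control arrays. The share also moved with array brightness: it was highest in starved E, the dimmest array, and lowest in control A, the brightest. Starved H was brighter than controls B and C and held 4.43%, against 4.35% and 4.01%. The part of brightness in the share was not tested.

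**Figure D1:**
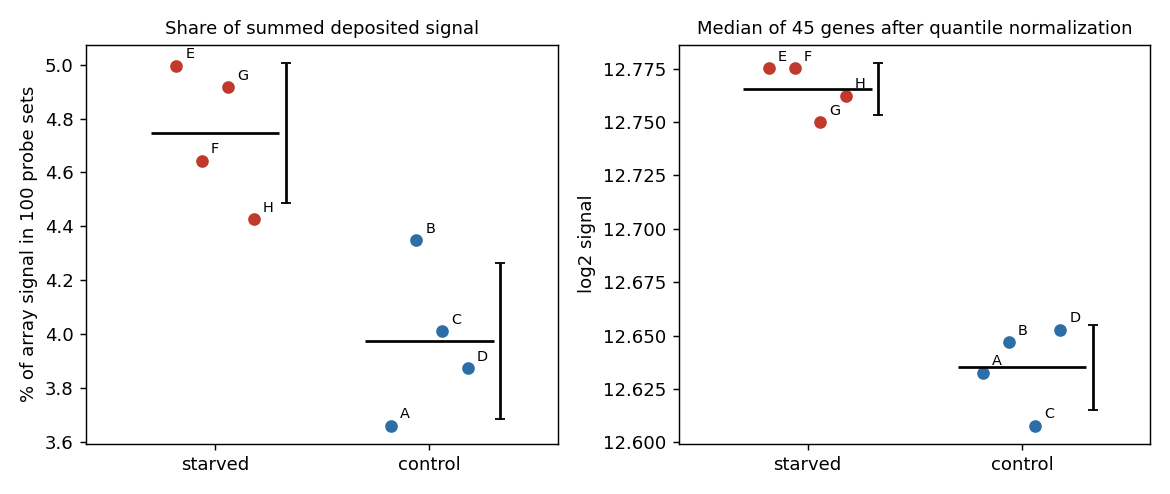
Ribosomal protein signal in each array, starved left and control right, with the mean (line) and SD (bar). The left panel gives the percent of summed deposited signal in the 100 probe sets (4.43% to 5.00% in starved, 3.66% to 4.35% in control), and the right panel the median log2 level of 45 genes after quantile normalization (12.75 to 12.78 in starved, 12.61 to 12.65 in control); unscaled medians ran the other way and overlapped.

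After quantile normalization the median level of the 45 tested genes was 12.78, 12.78, 12.75 and 12.76 in starved arrays E to H, against 12.63, 12.65, 12.61 and 12.65 in control arrays A to D. The groups did not overlap. In the deposited intensities the same median was 5724 to 7497 units in starved and 6199 to 7573 units in control arrays, so the groups overlapped there, with the starved mean lower. Of the 45 genes 39 had a lower deposited mean in starved arrays and 6 a higher one. The direction given for these genes is therefore relative to the rest of each array and is not a change in absolute signal.

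Of the 48 genes 45 passed the filter on dim probe sets and were tested, through the brightest probe set of each gene. In limma's test 7 genes were higher in starved myotubes (15.6%), against 4.25% of all 8352 genes tested, and none was lower, against 6.94% of all genes. At an unadjusted p of 0.05 there were 18 higher and 0 lower, against 930 higher and 1100 lower of all 8352 genes. Without control B 11 genes were higher, and 3 were higher without control C or without starved F. Estimates lay above 0 for 43 of the 45 genes, against 52.3% of all genes. The groups did not overlap, with starved higher, for 12 genes (26.7%), against 8.23% of all genes, and with starved lower for 0, against 10.2% of all genes. The shares of all genes were not matched for brightness or precision, here or below. Ribosomal protein genes had a median level of 12.70 and a median standard error of 0.06, against 8.50 and 0.14 over all genes tested. Smaller differences can pass or separate the groups where errors are smaller, and the part of this in the shares was not tested. The median log2 fold change was 0.12, beside 0.01 over all genes, whereas in unscaled values the medians were -0.10 for the ribosomal protein genes and -0.34 for all genes. Relative to all genes the ribosomal protein median thus stood 0.11 higher after quantile normalization and 0.24 higher in unscaled values. No gene passed in unscaled values (0 higher and 1 lower at an unadjusted p of 0.05).

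**Figure D2:**
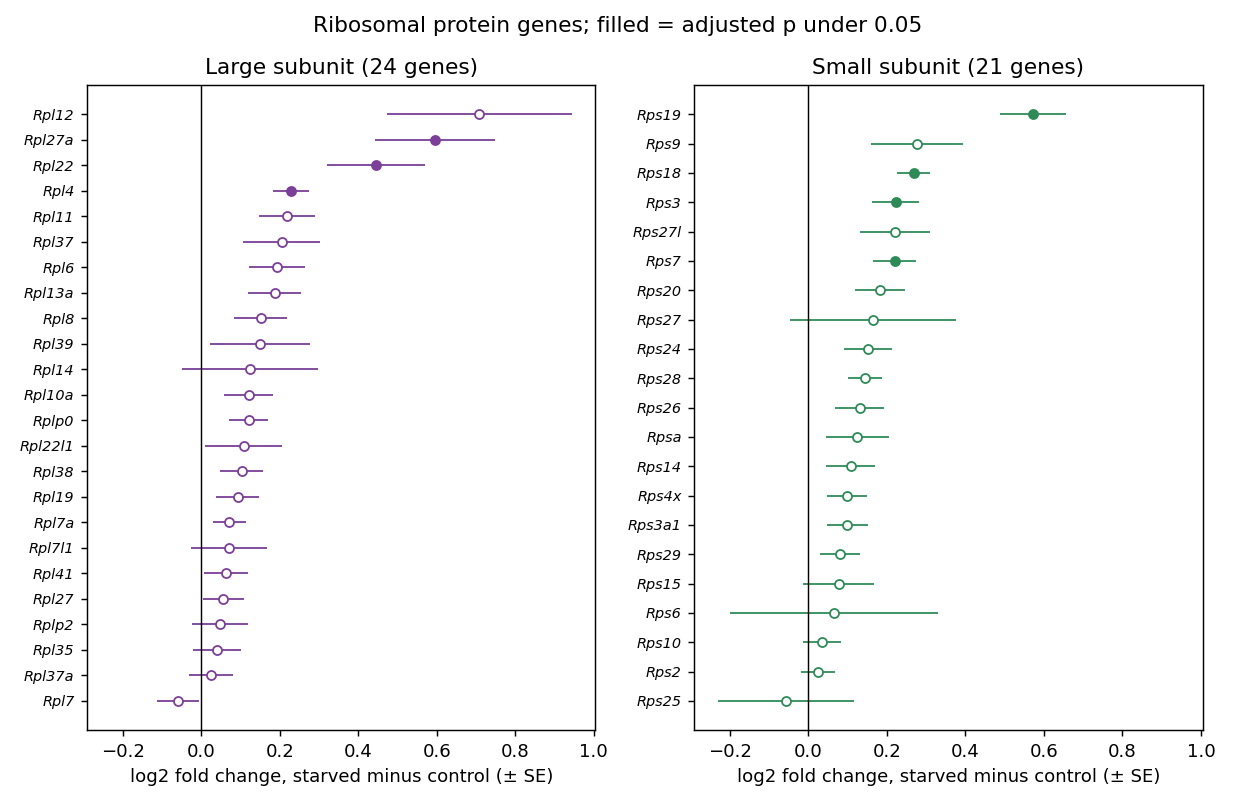
Log2 fold change (starved minus control, ± SE from limma) of the 24 large and 21 small subunit genes tested, after quantile normalization. Estimates lie above 0 for 43 of 45 genes, with a median of 0.12; in unscaled values that median was -0.10.

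The large and small subunits had nearly equal medians. Large subunit genes had a median of 0.12, with 3 of 24 higher (12.5%) and 0 lower. Small subunit genes had a median of 0.13, with 4 of 21 higher (19.0%) and 0 lower. Over all genes 4.25% were higher and 6.94% lower. Every starved array was above every control array for 4 of 24 large (16.7%) and 8 of 21 small subunit genes (38.1%). This held for 8.23% of all genes. In unscaled values the medians were -0.11 for the large and -0.10 for the small subunit. The difference of the medians, large minus small, was -0.01, and it ran from -0.04 to 0.01 over the alternatives tried. By array, the large subunit median minus the small subunit median was 0.01 ± 0.04 in starved and 0.02 ± 0.07 in control arrays (SD, n = 4 each). The highest value of any array was 0.12, in control B.

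Rps19, a small subunit protein whose loss in people causes Diamond-Blackfan anaemia, stood out among the bright genes. Its level was 12.57, 12.50, 12.52 and 12.36 in starved arrays, against 11.71, 12.10, 11.88 and 11.97 in control arrays. Every starved array was above every control array. The rise was 1.49-fold, with a log2 fold change of 0.57 ± 0.08 (SE; limma, adjusted p = 0.00121). Its deposited mean was higher as well, with 5222 ± 379 units in starved and 4368 ± 477 units in control arrays (SD, n = 4 each). The call held in 19 of the 20 settings tried and was lost in unscaled values (log2 fold change 0.26, adjusted p = 0.224).

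Rps18, which sits in the head of the small subunit, had 13.26, 13.28, 13.30 and 13.29 in starved arrays, against 13.04, 13.03, 13.01 and 12.97 in control arrays. The arrays of each group lay close together and the groups were apart. Rps18 rose by 0.27 ± 0.04 (adjusted p = 0.00184). The other tested probe sets of Rps18 stood at 0.09 (adjusted p = 0.281) and 0.19 (adjusted p = 0.182). The called probe set carries the suffix x, which marks probe sets able to bind related transcripts, and the one at 0.19 the suffix a. Rps18 was not called when probe sets with suffix x or s were left out. Rpl4, which lines the exit tunnel of the large subunit, had 13.19, 13.14, 13.10 and 13.11 in starved arrays, against 12.89, 12.95, 12.91 and 12.85 in control arrays. Rpl4 rose by 0.23 ± 0.05 (1.17-fold, adjusted p = 0.00829), again without overlap. Both calls held when any 1 array was left out. In unscaled values neither passed (0.06 for Rps18 and 0.04 for Rpl4), nor with median centring or without an intensity trend, and Rpl4 also did not pass with 75th percentile centring or without the brightness filter.

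Rps7, a small subunit protein that also binds the ubiquitin ligase MDM2, had 12.78, 12.78, 12.74 and 12.81 in starved arrays, against 12.65, 12.49, 12.48 and 12.60 in control arrays. It rose by 0.22 ± 0.05 (adjusted p = 0.0250), and its second probe set rose by 0.43 (adjusted p = 0.00454). Rps3, at the mRNA entry of the small subunit, had 12.64, 12.59, 12.63 and 12.65 in starved arrays, against 12.39, 12.52, 12.43 and 12.26 in control arrays. It rose by 0.22 ± 0.06 (adjusted p = 0.0401). Rps7 was called in 12 and Rps3 in 8 of the 20 settings. Neither gene's groups overlapped, but both estimates were below 0 in unscaled values (-0.01 for Rps7 and -0.05 for Rps3). Leaving out control C or starved E, F or H ended the call of Rps7 (adjusted p from 0.0602 to 0.0796). Leaving out any array but control B ended that of Rps3 (adjusted p from 0.0720 to 0.0994).

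Rpl27a and Rpl22 had the largest changes among called genes of the large subunit. The tested probe set of Rpl27a, a protein of the large subunit core, was dim, with 8.05, 8.54, 8.33 and 8.51 in starved arrays, against 8.01, 7.58, 7.57 and 7.89 in control arrays. Starved E and control A nearly met. It rose by 0.60 ± 0.15 (1.51-fold, adjusted p = 0.0296), a call lost in unscaled values (adjusted p = 0.551), without the brightness filter (adjusted p = 0.0520) and without control B or C or starved F, G or H (adjusted p from 0.0613 to 0.0893). Rpl22, an RNA-binding protein that cells can do without, had 11.58, 11.46, 11.66 and 11.55 in starved arrays, against 11.07, 11.54, 10.91 and 10.96 in control arrays. Only control B reached the starved range. Rpl22 rose by 0.45 ± 0.13 (adjusted p = 0.0451), and its second probe set by 0.54 (adjusted p = 0.00224). The first call was lost without any 1 array other than control B (adjusted p from 0.0722 to 0.123). Without control B the difference was 0.58. This call was also lost in unscaled values, with median or 75th percentile centring, without the brightness filter and without an intensity trend.

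**Figure D3:**
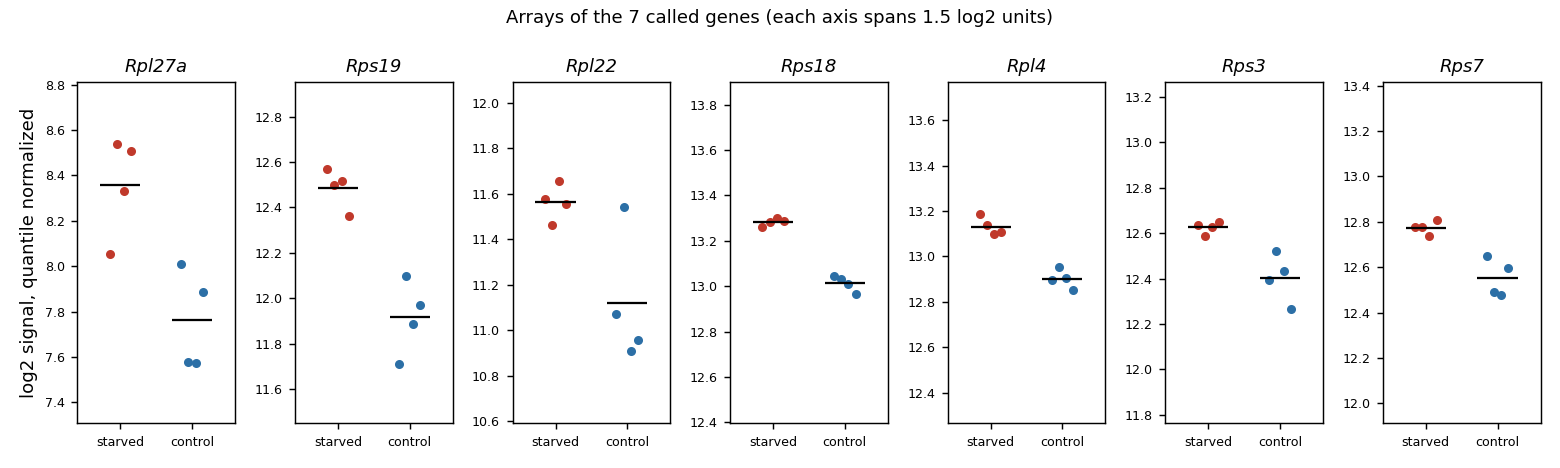
Quantile-normalized log2 signal of the 7 called genes in each array (starved left, control right; lines are group means; each axis spans the same width). The groups overlap only for Rpl22, where control B is at 11.54 among starved arrays of 11.46 to 11.66; in unscaled values the group difference is below 0 for Rps3 and Rps7.

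Members of the ribosomal stalk, the flexible arm that recruits elongation factors, did not pass. Rplp0 had 13.03, 12.96, 13.00 and 13.04 in starved arrays, against 12.91, 12.79, 12.92 and 12.93 in control arrays. These groups did not overlap, and the difference of 0.12 ± 0.05 had an adjusted p of 0.168. Rplp2 was at 0.05 ± 0.07 (adjusted p = 0.749). Rpsa, which also serves as a laminin receptor, was at 0.12 ± 0.08 (adjusted p = 0.388), and Rps14 at 0.11 ± 0.06 (adjusted p = 0.343). Rpl11, part of the particle that inhibits MDM2 when ribosome assembly fails, had 12.26, 12.21, 12.17 and 12.16 in starved arrays, against 11.93, 12.18, 11.91 and 11.91 in control arrays. Its difference of 0.22 ± 0.07 did not pass (adjusted p = 0.0846), and without control B it did (0.29, adjusted p = 0.00827). Rps4x, encoded on the X chromosome, was at 0.10 ± 0.05 (adjusted p = 0.271).

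The 3 brightest genes did not pass. Rpl41, the shortest ribosomal protein, was the brightest, with 13.72, 13.69, 13.85 and 13.72 in starved arrays, against 13.59, 13.80, 13.67 and 13.67 in control arrays. Its difference was 0.06 ± 0.06 (adjusted p = 0.548). Rps2 stood at 0.02 ± 0.04 (adjusted p = 0.786), and Rpl38, which in mouse embryos favours translation of Hox mRNAs, at 0.10 ± 0.05 (adjusted p = 0.284). None of the 3 was called in any of the 20 settings. Over these settings estimates ran from -0.18 to 0.18 (Rpl41), -0.20 to 0.16 (Rps2) and -0.10 to 0.26 (Rpl38). Further estimates near 0, each from the brightest probe set, were those of Rpl37a (0.02 ± 0.06), Rpl35 (0.04 ± 0.06) and Rps10 (0.03 ± 0.05). Other probe sets of these genes reached 0.13, 0.26 and 0.27. Only Rpl7 (-0.06 ± 0.05, adjusted p = 0.560) and Rps25 (-0.06 ± 0.17, adjusted p = 0.880) were below 0.

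Brightness divided the genes. Of the 45 tested genes 36 had a mean log2 level of 11 or more, and each of these exceeded at least 96.7% of all probe sets. The other 9 lay between 7.34 and 9.98, and among them were probe sets for Rps6, Rps25, Rps27, Rpl12, Rpl14 and Rpl39. A level this far below the rest of the family is a property of the probe set as well as of the mRNA, which cannot be told apart here. The median difference was 0.12 for the 36 bright genes, with 6 higher (16.7%), and 0.13 for the 9 dim genes, with 1 higher (11.1%). Over all genes 4.25% were higher. Standard errors had a median of 0.06 for the bright and 0.17 for the dim genes.

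**Figure D4:**
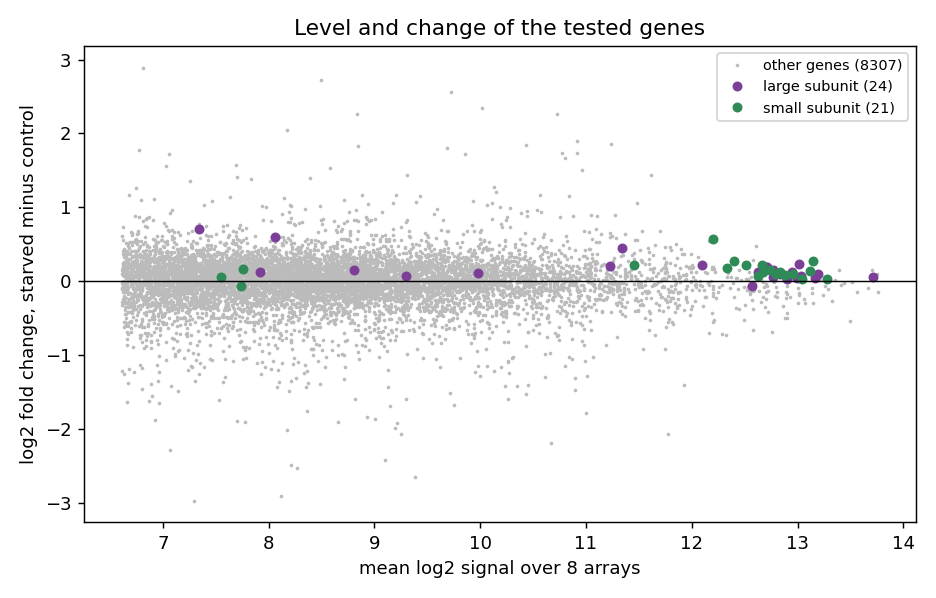
Mean log2 signal over 8 arrays against log2 fold change (starved minus control) after quantile normalization, for 24 large and 21 small subunit genes over the 8307 other tested genes. Most ribosomal protein genes sit at the bright end, slightly above 0; their median is 0.12 here and -0.10 in unscaled values.

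Among these dim probe sets the errors were wide. Rps6, the substrate that gives the S6 kinases their name, had 8.08, 7.73, 6.77 and 7.74 in starved arrays, against 8.00, 7.31, 7.36 and 7.41 in control arrays. The groups overlapped, and the difference of 0.07 ± 0.27 did not pass (adjusted p = 0.911). Rpl12 had 7.54, 7.87, 7.63 and 7.76 in starved arrays, against 7.04, 7.60, 7.01 and 6.31 in control arrays. Only control B reached the starved range. The difference of 0.71 ± 0.24 did not pass (adjusted p = 0.0884), and it did without control B (0.92, adjusted p = 0.0163). Rps9 behaved likewise at a high level, with 0.28 ± 0.12 (adjusted p = 0.183), and 0.39 without control B (adjusted p = 0.0185).

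Several ribosomal proteins have paralogs that replace them in some tissues. Rpl22l1, the paralog of Rpl22, had 9.90, 10.00, 10.17 and 10.06 in starved arrays, against 9.81, 9.89, 10.13 and 9.86 in control arrays. The groups overlapped, with a difference of 0.11 ± 0.10 (adjusted p = 0.559). Rps27l, a paralog of Rps27 induced by p53, had 11.47, 11.79, 11.50 and 11.50 in starved arrays, against 11.18, 11.44, 11.35 and 11.40 in control arrays, without overlap. Its difference of 0.22 ± 0.09 did not pass (adjusted p = 0.159), while the third of its probe sets did (0.37, adjusted p = 0.0471). Rps27 itself was at 0.16 ± 0.21 (adjusted p = 0.699). Rpl7l1 was at 0.07 ± 0.10 (adjusted p = 0.721), and its second probe set at 0.50 ± 0.17 (adjusted p = 0.0860). Rpl39 was at 0.15 ± 0.13 (adjusted p = 0.532). The 3 genes too dim to be tested were all paralogs. Rpl3l, which replaces Rpl3 in adult striated muscle, averaged 5.47 in starved and 5.88 in control arrays, Rpl39l, known from male germ cells, 4.27 in both, and Rps4l 3.90 in starved and 3.88 in control arrays. The filter lay at 6.61. Of the panel of stalk proteins, paralogs and proteins with other roles, Rplp1, Rps27a, Rpl3, Rpl5, Rpl10, Rpl10l, Rpl36a, Rpl36al and Rps19bp1 had no probe set with a single symbol in the annotation used here.

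Probe sets of the same gene mostly shared a direction but differed in size. Of 84 tested probe sets 14 were higher (16.7%), against 4.37% of all 13575 tested, and none was lower, against 6.23%. At an unadjusted p of 0.05 in limma 36 of the 84 were higher and 0 lower. The whole table was counted there by gene and not by probe set, with 930 higher and 1100 lower of 8352. Estimates were above 0 for 81 of the 84 probe sets, against 52.8% of all probe sets. The groups were apart with starved higher for 21 (25%), against 8.24%, and with starved lower for 0, against 9.13%. These shares were not matched for brightness either, the median level being 12.58, against 8.34 over all probe sets tested. More than 1 probe set was tested for 19 genes, and in 17 of these each estimate lay above 0. Rpl13a was not called by its brightest probe set (0.19, adjusted p = 0.113), while 2 of its other 3 rose by 0.43 and 0.32. Rpl27 stood at 0.06 with its brightest and at 0.33 with its dimmest probe set (adjusted p = 0.0269), and Rps10 had 1 of 5 probe sets called (0.27, adjusted p = 0.0420). In all, 11 genes had at least 1 called probe set. Ribosomal protein genes have many processed pseudogenes, and probe sets marked as able to bind related transcripts (suffix x) made up 37 of the 84. Their median difference was 0.14 with 3 called (8.11%), beside 0.17 with 8 called (29.6%) among the 27 marked as binding transcripts of 1 gene (suffix a). All of these calls were higher in starved, against 4.37% of all probe sets. A further 102 probe sets named a ribosomal protein together with other genes or pseudogenes and were not assigned. Of these 93 were tested, with a median of 0.17, and 19 were higher (20.4%, against 4.37% of all probe sets) and 1 lower (against 6.23%). In unscaled values 0 were higher and 2 lower. The whole table, again counted by gene, had 45 higher and 1027 lower of 8355 there.

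Other transcripts that begin with a TOP tract were examined as a list of 23 genes, mostly translation factors. Of 22 tested, 9 were higher (40.9%, against 4.25% of all genes) and 1 lower (against 6.94%), with a median of 0.19. Without control B 10 were higher, against 370 of all 8340 genes. In unscaled values 1 was higher and 2 lower, against 45 and 1027 of all 8355 genes. The tested genes of this list were also brighter, with a median level of 11.43, against 8.50 over all genes tested. The shares were not matched for this. Gas5, a noncoding host of small nucleolar RNAs that accumulates in growth-arrested cells, had 10.64, 10.79, 10.73 and 10.60 in starved arrays, against 9.49, 9.91, 9.78 and 9.57 in control arrays. Gas5 rose, with means of 10.69 in starved and 9.69 in control arrays (SE of the difference 0.10, adjusted p = 0.000103). This change exceeded those of the other 21, and it was called in all 20 settings. Snhg1, another such host, rose by 0.82 ± 0.13, Btf3 of the nascent chain complex by 0.59 ± 0.09, and the elongation factor subunit Eef1b2 by 0.47 ± 0.07. Hnrnpa1 (0.46), Eif4b (0.42), Npm1 (0.35), Pabpc1 (0.32) and Eif3f (0.32) also rose. Vim, an intermediate filament protein, fell by 0.30 ± 0.05, a call lost with median or 75th percentile centring, without an intensity trend and with the mean of its probe sets. In unscaled values the estimates of Npm1, Pabpc1 and Eif3f were below 0 (-0.03, -0.04 and -0.04), and only Gas5 was called higher. Npm1 was also not called without starved F (adjusted p = 0.0596), and Npm1, Pabpc1 and Eif3f were not called with median centring (adjusted p = 0.0917, 0.0745 and 0.169) or without an intensity trend (adjusted p = 0.0557, 0.0775 and 0.0608). Eif3f was also not called with 75th percentile centring (adjusted p = 0.0843). Fau, a small subunit protein outside the symbol rule, was at 0.20 ± 0.08 (adjusted p = 0.164).

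Of 24 chaperones, importins and late assembly factors of ribosomal proteins 21 were tested. Of these 3 were higher (14.3%, against 4.25% of all genes) and 0 lower (against 6.94%), with a median of 0.16. At an unadjusted p of 0.05 in limma 7 were higher and 1 lower, against 930 and 1100 of all 8352 genes. Rrs1, which helps place the 5S particle that holds Rpl5 and Rpl11, rose by 0.82 ± 0.13, the importin Ipo5 by 0.54 ± 0.07, and Pdcd2, a chaperone of Rps2, by 0.48 ± 0.13. Leaving out any 1 of the 8 arrays ended the call of Pdcd2 (adjusted p from 0.0523 to 0.104), and none of the 3 passed in unscaled values. In the list of TORC1, S6 kinase and TOP mRNA-binding genes 1 of 17 tested was higher and 1 lower (5.88% each way, near the 4.25% and 6.94% of all genes; median 0.01). Eif4ebp1, the repressor of cap-dependent translation that TORC1 inactivates, rose by 0.88 ± 0.09 (0.50 in unscaled values, adjusted p = 0.0811). Mtor, the TORC1 kinase, had 9.68, 9.60, 9.52 and 9.34 in starved arrays, against 9.92, 10.40, 9.94 and 9.85 in control arrays. Mtor fell by 0.49 ± 0.13 (adjusted p = 0.0346), a call lost without control A or C or starved F, G or H (adjusted p from 0.0550 to 0.0796), without an intensity trend (adjusted p = 0.0648) and with the mean of its probe sets (-0.17). Larp1, which binds TOP tracts, was at 0.16 ± 0.09 (adjusted p = 0.298).

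The size and sign of the family's shift depended on how arrays were made comparable. The ribosomal protein median was -0.10 in unscaled values, 0.22 with median centring and 0.26 with 75th percentile centring, beside all-gene medians of -0.34, -0.02 and 0.02. The distance above the all-gene median was 0.24 under each of these and 0.11 after quantile normalization. With 1 array left out and quantile normalization, the ribosomal protein median ran from 0.11 to 0.14.

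**Figure D5:**
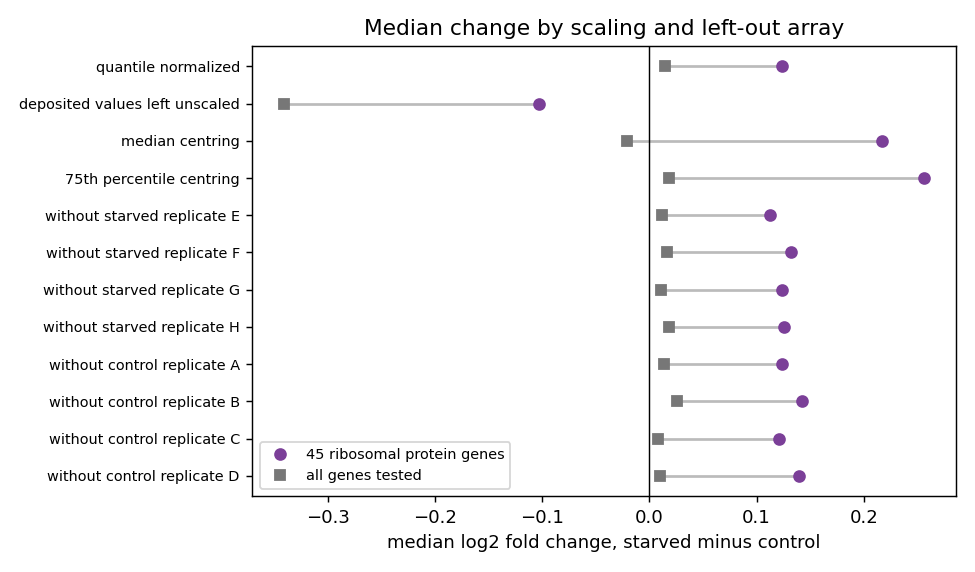
Median log2 fold change (starved minus control) of the ribosomal protein genes (circles) and of all tested genes (squares) under 4 scalings and with each array left out. The circles stay right of the squares in every row, while the circle itself lies at -0.10 in unscaled values and between 0.11 and 0.26 in the other rows.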

How the data were processed

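RNA of starved and control C2C12 myotubes was measured on Affymetrix mouse arrays, 4 per group, 1 array per sample. The deposited values were treated as linear intensities per probe set, judged from their range. Trimmed means differed up to 1.87-fold between arrays, so no common scaling is apparent; the authors' software and settings were not given in the sources used here. Unscaled means the deposited values without any further scaling. Detection calls are absent, and precision is bounded by the number of arrays. After adding 10.9 (the 10th percentile of all values) and taking log2, arrays were quantile normalized without the 64 control probe sets, and 13575 probe sets with a mean over 6.61 (the 40th percentile) entered the test. Fold changes are on the log2(intensity + offset) scale.

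The comparison of starved with control arrays used lmFit and eBayes (intensity trend on) of limma 3.58.1 under R 4.3.3. P-values were adjusted after Benjamini-Hochberg across the whole table, and called means an adjusted p under 0.05. A gene was its brightest tested probe set with 1 symbol in the platform annotation; the gene numbers of all 100 probe sets matched RefSeq. Named genes are the called ones, a panel of stalk proteins, paralogs and proteins with other roles, the 3 highest and 3 lowest of each subunit, the 3 brightest and 3 dimmest, those whose probe sets differ, and called genes of the 4 lists of related genes. Members and lists were chosen with earlier results of these data known. Alternatives varied scaling, offset, filter, variance model, probe sets and arrays. The procedure was tested on simulated data. Figures used matplotlib 3.10.9 in Python 3.11.15.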

Additional observations from a re-analysis of the deposited data

Results flagged for a closer look

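Of 104 groups of 4 arrays checked, 8 held 1 array far from the other 3, where chance gives about 1 in 20. Control B lay apart in the 3′ to 5′ log2 ratio of Gapdh (1.40, the others -0.22 to -0.12), in Rpl11 (12.18, the others 11.91 to 11.93), in Rpl13a (12.75, the others 12.54 to 12.57) and in Rplp0, where it was low (12.79, the others 12.91 to 12.93). Control A was high in Rps6 (8.00, the others 7.31 to 7.41). Among starved arrays, H was low in the median level of large subunit genes (12.72, the others 12.78 to 12.79), G was high in Rpl41 (13.85, the others 13.69 to 13.72) and F was high in Rps27l (11.79, the others 11.47 to 11.50).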

How the results depend on the processing

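The 7 genes called higher became 0 in unscaled values, 2 with median centring, 4 with 75th percentile centring, 2 when dim probe sets were kept, 2 with a constant prior variance and 11 with array weights, and ran from 3 to 11 with 1 array left out; 0 were lower in each of these. Control C and starved F gave 3, starved E, G and H gave 4, control B gave 11 and the others 5 or 6. The 14 probe sets called higher became 0, 4, 6, 7 and 5 in the first 5 of these settings and 21 with array weights, and ran from 8 to 21 without 1 array. The median of 0.12 became -0.10 in unscaled values, 0.22 with median centring, 0.26 with 75th percentile centring and 0.14 with array weights, and ran from 0.11 to 0.14 without 1 array. Medians of the large and small subunit were -0.11 and -0.10 in unscaled values, 0.21 and 0.22 with median centring, and 0.25 and 0.26 with 75th percentile centring, and ran from 0.11 to 0.13 and from 0.12 to 0.15 without 1 array. Called genes over the whole table were 355 higher and 580 lower, with a median of 0.01 over all genes. In unscaled values they were 45 and 1027, with a median of -0.34. Without starved F 226 were higher. Counts for the related lists and for probe sets with several symbols under other scalings and without control B were chosen after seeing the data. The cause of the differences between settings was not tested. No paired analysis was possible because the replicate letters differ between the groups.

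In unscaled values 39 of the 45 ribosomal protein genes lay below 0. Among the genes named in the text, those that turned below 0 there were Rpl11 (-0.13), Rpl13a (-0.026), Rpl22l1 (-0.28), Rpl27 (-0.15), Rpl35 (-0.14), Rpl37a (-0.12), Rpl38 (-0.10), Rpl39 (-0.22), Rpl41 (-0.18), Rpl7l1 (-0.31), Rplp0 (-0.065), Rplp2 (-0.12), Rps10 (-0.14), Rps14 (-0.10), Rps2 (-0.20), Rps27 (-0.17), Rps27l (-0.14), Rps3 (-0.053), Rps4x (-0.095), Rps6 (-0.26), Rps7 (-0.0051), Rps9 (-0.023), Rpsa (-0.059), Eif3f (-0.036), Npm1 (-0.033) and Pabpc1 (-0.042). Rpl7 turned above 0 with median centring (0.019), 75th percentile centring (0.058) and the mean of its probe sets (0.033). Without 1 array Rpl37a ran from -0.0011 to 0.12, Rps25 from -0.16 to 0.046, Rps27 from -0.033 to 0.30 and Rps6 from -0.10 to 0.33.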
